A study of Homo sapiens with 4 samples.

Results

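The mRNAs described here encode the protein import machinery of mitochondria and the carriers of its inner membrane, measured in RNA precipitated with an antibody against PHGDH, the enzyme that starts serine synthesis from glycolysis. They are the 74 gene symbols that begin with TOMM, TIMM or SLC25A and a number, out of 44715 symbols in each deposited table. The prefixes matched 110 symbols, from which 29 pseudogenes, 6 antisense transcripts and 1 divergent transcript on the opposite strand were dropped. The members comprise 10 TOMM, 16 TIMM and 48 SLC25A symbols.

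Most mitochondrial proteins are made in the cytosol and enter through the TOM complex of the outer membrane, whose receptors hand precursors to a central pore. From there, precursors with a presequence pass to the TIM23 complex, whereas carriers and other multispanning proteins are escorted across the intermembrane space by small TIM chaperones to the TIM22 complex, which inserts them into the inner membrane. The SLC25A carriers, which are themselves clients of that route, exchange nucleotides, phosphate, amino acids, cofactors and other metabolites across the inner membrane.

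RNA immunoprecipitation followed by sequencing was done in HEK293T, a widely used cell line of human embryonic kidney origin with the large T antigen of SV40. The 4 libraries comprised 2 precipitations with the PHGDH antibody and 2 with a control IgG antibody from the same untreated line, with no engineered change or treatment named in either group. The RNA was recovered from native lysates after washes that included a high-salt buffer, without crosslinking being named in the labels. No input RNA was analysed here, so abundance in the cell and recovery in the precipitation cannot be told apart, and neither can a higher share of an mRNA and a lower share of other RNA.

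The libraries held 3365837 and 1216477 reads assigned to genes for anti-PHGDH replicates 1 and 2, and 3875746 and 1579430 for IgG replicates 1 and 2. IgG replicate 1 stood apart: it listed 4148 symbols above 0, against 14518 to 16767 in the other libraries, although it was the deepest. The mRNA of PHGDH itself stood at 6550.2 and 1531 CPM (reads assigned to a gene, scaled to a common library total) in the anti-PHGDH libraries, 0 in IgG replicate 1 and 461 in IgG replicate 2. Transcripts of the mitochondrial chromosome took 28.8% and 8.69% of the reads in anti-PHGDH replicates 1 and 2, and 3.87% and 3.37% in IgG replicates 1 and 2. Of 8 markers of the line, VIM, KRT18, NEFM and NEFL were highest in IgG replicate 1 (VIM at 199, 482, 530.0 and 456 CPM), IGF2BP1 was lowest there at 14.2 CPM, and KRT8, LIN28B and PAX2 were at 0 there. PAX2, a kidney lineage marker, was otherwise low, at 1.49, 1.64 and 1.90 CPM. Of 4 markers of other cell types, PTPRC and PECAM1 were at 0 in all 4 libraries, ALB had 0.297 CPM in anti-PHGDH replicate 1 alone, and COL1A1 was at 8.62, 12.3, 0 and 7.60 CPM; their part in the results was not tested. One read was worth 0.297, 0.822, 0.258 and 0.633 CPM in the same order. Since 3 reads are the limit that a count of 0 leaves, a listed 0 stands for at most 0.891, 2.47, 0.774 and 1.90 CPM. All values below follow that order, anti-PHGDH replicates 1 and 2 and then IgG replicates 1 and 2, unless a library is named.

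In summed reads the 3 groups did not go the same way. The TOMM mRNAs took 0.2215% and 0.2805% of the reads in the anti-PHGDH libraries and 0.5389% and 0.3206% in the IgG libraries, with means of 0.251% ± 0.0417 and 0.4297% ± 0.1543 (SD, n = 2 each). The TIMM mRNAs took 0.2047% and 0.3303% against 0.3518% and 0.4319%, with means of 0.2675% ± 0.0888 and 0.3918% ± 0.0567 (SD, n = 2 each). The SLC25A mRNAs took 0.4378% and 0.336% against 0.2278% and 0.2579%, with means of 0.3869% ± 0.072 and 0.2429% ± 0.0213 (SD, n = 2 each). Both translocase groups were thus lower, and the carriers higher, with anti-PHGDH than in either IgG library. An exact permutation test of 2 against 2 libraries cannot give a two-sided p below 0.333, so that test was not run on the shares.

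**Figure D1:**
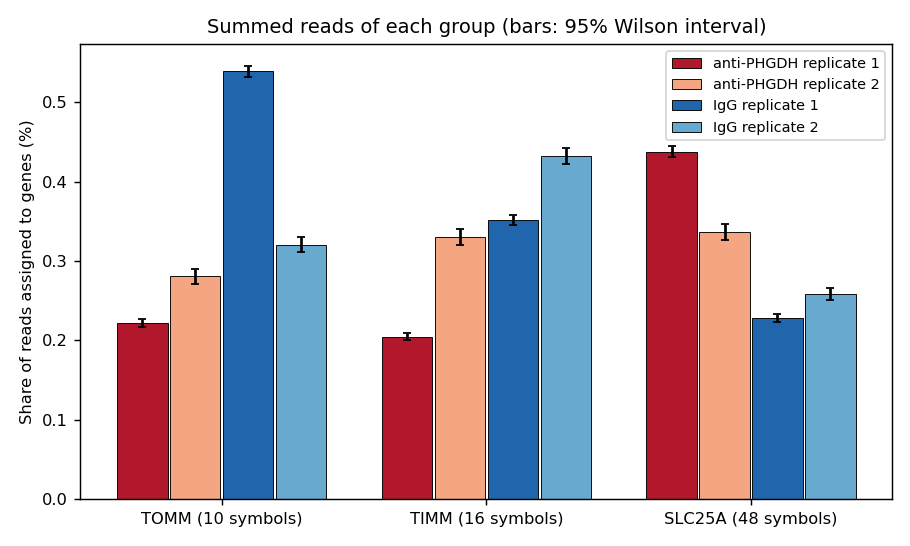
The bars give the share of all reads assigned to genes, in percent, that fell on the TOMM, TIMM and SLC25A symbols in each of the 4 libraries, with 95% Wilson intervals for counting error only. The anti-PHGDH bars (0.2215% and 0.2805%) lie below the IgG bars (0.5389% and 0.3206%) for TOMM, likewise for TIMM, and above them for SLC25A (0.4378% and 0.336% against 0.2278% and 0.2579%).

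Which genes carried those sums differed between the libraries. In IgG replicate 1, TOMM20 alone held 53.96% and TOMM70 22.28% of the TOMM reads, while TIMM8A held 37.78% and TIMM17A 20.47% of the TIMM reads. Without TOMM20 and TOMM70 the TOMM share was 0.1964%, 0.2506%, 0.128% and 0.2888%. Without TIMM8A and TIMM17A the TIMM share was 0.1661%, 0.2789%, 0.1469% and 0.371%, so that neither translocase group was separated any longer. Both stayed separated when the pair with the highest mean CPM was left out instead. The TOMM share without TOMM5 and TOMM20 was 0.1317% and 0.1506% against 0.1615% and 0.1606%. The TIMM share without TIMM13 and TIMM8B was 0.1395% and 0.1608% against 0.284% and 0.1728%. The carriers remained separated without SLC25A5 and SLC25A3, the pair with the most reads, at 0.2799%, 0.1449%, 0.0395% and 0.1071%. In IgG replicate 1 that pair held 57.14% and 25.54% of the carrier reads. Leaving out the members most read in IgG replicate 1 lowers the share of that library. That step works against a lower share with anti-PHGDH for the translocases and toward a higher one for the carriers, so it is not a like check for them. The carriers also remained separated without SLC25A39 and SLC25A23, at 0.2898%, 0.2797%, 0.2275% and 0.2347%. The difference between the group means then fell from 0.144 to 0.0536 percentage points. With the mitochondrially encoded reads taken out of the totals, the groups kept their order for TOMM (0.3112% and 0.3072% against 0.5605% and 0.3318%), TIMM and SLC25A alike.

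Gene by gene, the groups were compared with limma on log2(CPM + 1) over the 9524 genes that reached 5 CPM or more in 2 libraries or more. This filter passed 55 of the 74 members, namely 9 TOMM, 13 TIMM and 33 SLC25A mRNAs. No member passed the threshold of an adjusted p of 0.05 in either direction, and over all genes tested 0.0105% did so as higher and 0.0% as lower with anti-PHGDH. The members' adjusted p-values from limma, adjusted over all genes tested by the Benjamini-Hochberg method, ran from 0.677 to 0.916. At an unadjusted p under 0.05, 4 members were higher (SLC25A39, SLC25A23, TIMM50 and TIMM17B), or 7.27% against 2.74% of all genes, and 0 were lower, as were 0.0% of all genes. edgeR on the recovered reads also gave 0 members past the adjusted threshold, and at the unadjusted one 0 higher and 1 lower. The lower one was TOMM70, which peaked in IgG replicate 1. The edgeR shares over all genes are not given here, so these edgeR counts are not read as a result about the members. These p-values rest only on the spread between these 4 libraries, which the series describes as biological duplicates. In limma that spread was taken from a trend over all genes tested and not from each gene's own libraries.

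The median log2 difference between the groups was 2.14 over the 55 members and 1.92 over all genes tested, and 31 members were at 0 in IgG replicate 1, or 56.4% against 61.9% of all genes. By group the median was 0.38 for TOMM, 1.16 for TIMM and 2.25 for SLC25A. Without IgG replicate 1 these medians were −0.02, −0.26 and 0.31, beside 0.14 for all genes. Scaling moved the median of all genes, by −0.15 with TMM factors, −2.50 with library medians centred and −1.97 with quantiles; differences below are on the CPM scale. Relative to all genes the TOMM median was lower by 1.54 and the TIMM median by 0.77 on that scale, but higher by 0.59 and 0.0414 after quantile normalization. Leaving out IgG replicate 2, limma called 40 members higher and 4 lower of 55, against 74.9% and 10.8% of all genes, with IgG replicate 1 as the lone control library and assumed to vary like the others.

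The values of the 4 libraries of a gene did not overlap between the groups for 23 members. Of these, 19 were higher with anti-PHGDH (3 of 9 TOMM, 2 of 13 TIMM and 14 of 33 SLC25A). They were 34.5% of those tested, against 38.3% of all genes. The other 4 were lower, or 7.27% against 6.16% of all genes. The lower ones were TOMM20, TIMM17A, TIMM10 and TIMM8A, with no carrier among them. A gene at 0 in IgG replicate 1 cannot be lower in this sense. That applied to 24 of 33 carriers (72.7%), 2 of 9 TOMM and 5 of 13 TIMM mRNAs, so the absence of carriers is not read as a result. At least 2-fold between every anti-PHGDH and every IgG library, on CPM + 1, 6 members were higher, or 10.9% against 9.3% of all genes, and 0 lower, against 0.084%. Those 6 were TOMM34, SLC25A39, SLC25A23, SLC25A44, SLC25A22 and SLC25A30. SLC25A22 and SLC25A30 passed the filter only through the anti-PHGDH libraries and so had to be higher there; without such genes 4 members were left, or 7.55% against 5.85% of all genes. The members' shares thus lay near those of all genes. The split of members without overlap was 4 higher to 23 lower of 55 with library medians centred, against 8.64% and 33.2% of all genes, and 10 to 10 after quantile normalization, against 17.1% and 20.6%. It was 23 to 17 without IgG replicate 1, against 43.9% and 25.1%, and without the mitochondrially encoded genes 2 members were lower, against 4.24%.

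Among the receptors of the TOM complex, IgG replicate 1 held the highest values of TOMM20 and TOMM70. TOMM20, the receptor for presequences, stood at 204 and 234 CPM in the anti-PHGDH libraries against 2908 and 261 CPM in the IgG libraries. TOMM70, the receptor that takes up carrier precursors from cytosolic chaperones, stood at 47.8 and 64.1 against 1200.8 and 56.3 CPM. TOMM22, the central receptor that links the others to the pore, stood at 103 and 113 against 71.7 and 94.97 CPM. For TOMM20 and TOMM70, 3 libraries lay close together and IgG replicate 1 was 11.1 and 21.3 times IgG replicate 2, whereas TOMM22 was slightly higher with anti-PHGDH in every pair. The log2 differences were −1.99 (SE 1.34) for TOMM20, −2.22 (SE 1.65) for TOMM70 and 0.38 (SE 1.73) for TOMM22, with limma adjusted p-values of 0.677, 0.677 and 0.884. Without IgG replicate 1 they were −0.26, −0.02 and 0.18.

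Such a peak in IgG replicate 1, at least 2-fold above each of the other libraries, was seen for 5 members (9.09%), against 12.2% of all genes tested. Besides TOMM20 and TOMM70 these were TIMM17A, TIMM8A and SLC25A17.

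TOMM40, the pore through which nearly all precursors pass, stood at 58.8 and 55.9 against 0 and 57.6 CPM. Its paralog TOMM40L stood at 40.7 and 19.7 against 0 and 17.1 CPM. TOMM40 was thus level in the libraries that detected it, whereas TOMM40L was about level in the libraries numbered 2 and higher in anti-PHGDH replicate 1. Their log2 differences of 2.93 (SE 2.43) and 2.79 (SE 2.71) rested on the 0 in IgG replicate 1: without it they were −0.01 and 0.70.

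The small subunits TOMM5, TOMM6 and TOMM7, which stabilise the pore complex, were all lower in both anti-PHGDH libraries than in IgG replicate 2. TOMM5 stood at 694 and 1064.5 against 865.6 and 1338.5 CPM, TOMM6 at 460.2 and 516 against 258 and 577 CPM, and TOMM7 at 124 and 586 against 39.2 and 755 CPM. TOMM7 differed most within the groups, with anti-PHGDH replicate 1 at 0.212 of replicate 2 and IgG replicate 1 at 0.0519 of replicate 2. In the libraries numbered 2 the ratio of anti-PHGDH to IgG was 0.795 for TOMM5 (95% exact interval 0.742 to 0.853), 0.895 for TOMM6 (0.807 to 0.992) and 0.776 for TOMM7 (0.706 to 0.852). These intervals cover the counting error of reads, which carried no molecular identifiers, and not the spread between precipitations. The values of all 3 overlapped between the groups, since IgG replicate 1 lay at or below an anti-PHGDH library.

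TOMM34 carries the family's name but is a cytosolic co-chaperone of Hsp70 and Hsp90 and no subunit of the complex. It stood at 482 and 151 against 45.9 and 48.1 CPM, with means of 317 ± 234 and 47.0 ± 1.55 CPM (SD, n = 2 each). It was the only TOMM or TIMM mRNA that was at least 2-fold higher in every pair of libraries, and the only one of the 6 that IgG replicate 1 read with more than 6 reads, at 178 reads. The ratio was 3.14 in the libraries numbered 2 (95% exact interval 2.39 to 4.16), and anti-PHGDH replicate 1 was 10.0 times IgG replicate 2. Its log2 difference was 2.498 (SE 1.67), with an adjusted p of 0.677 in limma. Leaving out IgG replicate 1 gave 2.46, and scaling gave 2.24 with TMM factors, 2.81 with quantiles and 0.0004 with library medians centred. The gene lies at chr20:44942130-44960397 (GRCh38.p14, RefSeq; NCBI gene 10953). The last TOMM member, TOMM20L, a paralog of TOMM20, had 1 read in anti-PHGDH replicate 1 and none elsewhere.

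**Figure D2:**
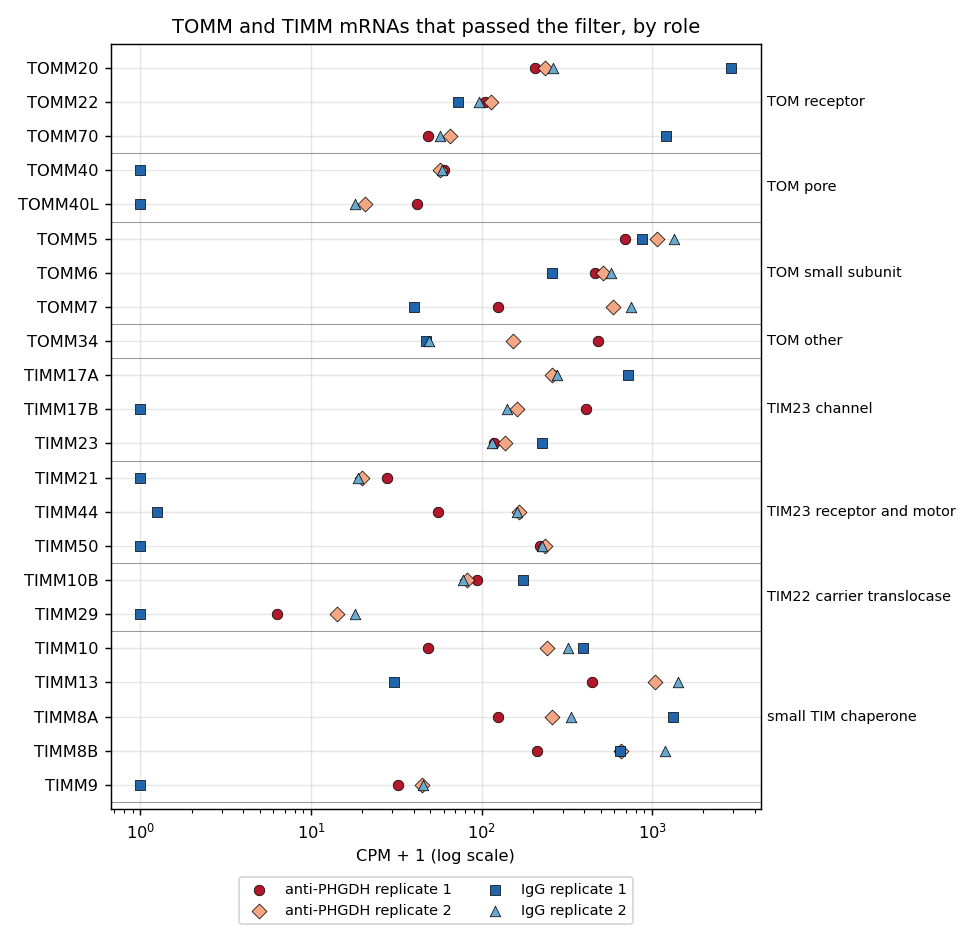
Each row is a TOMM or TIMM mRNA that passed the filter, placed by CPM + 1 on a log axis in the 4 libraries and grouped by the role of its protein; a value of 1 on the axis is a CPM of 0. TOMM20 and TOMM70 reach 2908 and 1200.8 CPM in IgG replicate 1 alone, TOMM34 is higher in both anti-PHGDH libraries (482 and 151 CPM), and all 5 small TIM chaperones lie below IgG replicate 2 in both anti-PHGDH libraries.

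The channel of the TIM23 complex is formed by TIMM23 with TIMM17A or TIMM17B. TIMM23 stood at 118 and 136 against 227 and 115 CPM and overlapped between the groups. TIMM17A stood at 262 and 256 against 719.9 and 274 CPM, lower in both anti-PHGDH libraries, with a ratio of 0.936 (95% exact interval 0.806 to 1.08) within the libraries numbered 2. TIMM17B stood at 411 and 161 against 0 and 139 CPM, higher in both. Its gene overlaps PQBP1, with which it may share reads. The paralogs TIMM17A and TIMM17B thus differed most in IgG replicate 1, which held the highest value of the first and no read of the second. Their log2 differences were −0.78 (SE 1.39) and 4.45 (SE 1.93), and −0.08 and 0.88 without that library, with limma adjusted p-values of 0.711 and 0.677. TIMM23B, a near-identical copy of TIMM23 between which the counting may split reads, stood at 2.38, 0.822, 0 and 3.17 CPM, and the readthrough transcript TIMM23B-AGAP6 had 1 read in all.

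The TIMM members on the receptor and motor side of TIM23 were level in the libraries numbered 2. TIMM50, the receptor that meets precursors leaving the pore, stood at 220.4 and 235 against 0 and 226 CPM. TIMM44, which tethers the chaperone HSPA9 to the channel, stood at 54.7 and 164 against 0.258 and 160.2 CPM. TIMM21, which couples the channel to the outer membrane, stood at 26.7 and 18.9 against 0 and 17.7 CPM. The ratios within number 2 were 1.04 for TIMM50 (95% exact interval 0.887 to 1.22), 1.03 for TIMM44 (0.848 to 1.24) and 1.07 for TIMM21 (0.587 to 1.92). TIMM50 was past an unadjusted p of 0.05 in limma only beside the 0 in IgG replicate 1: its log2 difference was 3.92 (SE 1.91, adjusted p = 0.677), and 0.01 without that library.

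The mRNA of TIMM22, the channel of the carrier translocase, was listed at 0 in all 4 libraries; its gene overlaps ABR. TIMM29, a subunit of that complex, stood at 5.35 and 13.2 against 0 and 17.1 CPM, and TIMM10B, its peripheral subunit, at 92.4 and 81.4 against 175 and 77.2 CPM. Both overlapped between the groups, with log2 differences of 1.16 (SE 2.26) and −0.42 (SE 1.71) that turned to −0.93 and 0.16 without IgG replicate 1.

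The 5 small TIM chaperones of the intermembrane space were all lower in both anti-PHGDH libraries than in IgG replicate 2. Over all members this held for 17 (30.9%; 4 TOMM, 7 TIMM and 6 SLC25A), and over all genes tested for 25.1%. The opposite, both anti-PHGDH libraries above IgG replicate 2, held for 23 members (41.8%; 3 TOMM, 4 TIMM and 16 SLC25A) against 43.9% of all genes. In the first set of chaperones, TIMM9 and TIMM10 form the hexamer that escorts carriers: TIMM9 stood at 31.2 and 43.6 against 0 and 44.3 CPM. TIMM10 stood at 47.2 and 240.0 against 390.1 and 319 CPM. TIMM10 was lower in both anti-PHGDH libraries than in either IgG library, whereas TIMM9 was level in the libraries numbered 2 and without a read in IgG replicate 1.

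TIMM8A, whose loss causes a deafness and dystonia syndrome, and TIMM13 form the other hexamer, and TIMM8B is the paralog of TIMM8A. TIMM8A stood at 124 and 257 against 1329 and 335 CPM and was lower with anti-PHGDH in every pair. TIMM13 stood at 442 and 1035 against 29.7 and 1408 CPM. TIMM8B stood at 209 and 660.1 against 647 and 1183 CPM, with anti-PHGDH replicate 2 slightly above IgG replicate 1. The genes of TIMM13 and TIMM8B overlap TMPRSS9 and NKAPD1, with which they may share reads. Within number 2 the ratios were 0.768 for TIMM8A (95% exact interval 0.666 to 0.885), 0.735 for TIMM13 (0.685 to 0.788), 0.558 for TIMM8B (0.513 to 0.606), 0.752 for TIMM10 (0.649 to 0.871) and 0.983 for TIMM9 (0.675 to 1.43). The limma log2 differences were −1.89 (SE 1.38) for TIMM8A, −1.71 (SE 1.52) for TIMM10 and −1.23 (SE 1.29) for TIMM8B, each with an adjusted p of 0.677 and the same sign under TMM, median and quantile scaling. For TIMM13 and TIMM9 the sign turned with IgG replicate 1, from 1.71 to −1.06 and from 2.49 to −0.26 without it.

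Much of the distance from IgG replicate 2 lay in anti-PHGDH replicate 1, the library with 28.8% mitochondrially encoded reads. At least 2-fold lower in anti-PHGDH replicate 1 than in replicate 2 were 9 members (TOMM7, TIMM10, TIMM8B, TIMM13, TIMM44, TIMM29, TIMM8A, SLC25A28 and SLC25A53), or 16.4% against 14.4% of all genes, and 6 of them were TIMM mRNAs. At least 2-fold higher there were 11 members (2 TOMM, 1 TIMM and 8 SLC25A), or 20.0% against 13.5% of all genes. With CPM computed without the mitochondrially encoded genes, both anti-PHGDH libraries still lay below IgG replicate 2 for 11 members (20.0%), against 16.6% of all genes. They included TIMM8A, TIMM8B, TIMM10 and TIMM13 but no longer TIMM9, and TOMM5 and TOMM7 but no longer TOMM6. The part of the mitochondrial reads in the remaining differences was not tested beyond this.

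The largest log2 differences of the members were those of a pair of carriers, SLC25A39 and SLC25A23, followed by TIMM17B and SLC25A44. SLC25A39, which brings glutathione into mitochondria, stood at 1065 and 412 against 1.55 and 193 CPM, with means of 738 ± 462 and 97.3 ± 135 CPM (SD, n = 2 each). SLC25A23, a calcium-regulated carrier of ATP-magnesium and phosphate, stood at 415 and 150.4 against 1.03 and 39.3 CPM, with means of 283 ± 187 and 20.1 ± 27.0 CPM (SD, n = 2 each). SLC25A44, a carrier of branched-chain amino acids, stood at 102 and 38.6 against 0 and 12.7 CPM. In each of these the order of the libraries was the same, with anti-PHGDH replicate 1 highest, anti-PHGDH replicate 2 next, IgG replicate 2 below and IgG replicate 1 at 6, 4 and 0 reads.

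The ratio in the libraries numbered 2 was 2.13 for SLC25A39 (95% exact interval 1.85 to 2.47), 3.83 for SLC25A23 (2.86 to 5.20) and 3.05 for SLC25A44 (1.77 to 5.44). Anti-PHGDH replicate 1 was 5.52, 10.6 and 8.05 times IgG replicate 2. The limma log2 differences were 4.90 (SE 1.65), 4.79 (SE 2.00) and 4.11 (SE 2.62), each with an adjusted p of 0.677, and without IgG replicate 1 they were 1.77, 2.64 and 2.22. The direction of all 3 was the same under TMM, median and quantile scaling. The genes lie at chr17:44319628-44324823, chr19:6436081-6459792 and chr1:156194104-156212796 (GRCh38.p14, RefSeq). SLC25A23 overlaps SLC25A41, which was listed at 0 in all libraries.

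The other carriers past 2-fold in every pair were read thinly. SLC25A22, a glutamate carrier, had 49 and 9 reads with anti-PHGDH and 0 and 3 with IgG, or 14.6 and 7.40 against 0 and 1.90 CPM. SLC25A30, known as kidney mitochondrial carrier protein, had 19 and 12 against 0 and 2 reads, or 5.65 and 9.87 against 0 and 1.27 CPM. Within number 2 the ratio of SLC25A22 was 3.90 with a 95% exact interval of 0.972 to 22.4, which includes 1, and that of SLC25A30 was 7.79 with an interval of 1.73 to 71.7. The log2 difference of SLC25A30 was 2.497 (SE 1.37), and −0.0004 with library medians centred. SLC25A30 overlaps an antisense transcript, and SLC25A22 overlaps PANO1; whether the counting used strand is not given in the sources used here. Set against IgG replicate 2 alone, both anti-PHGDH libraries were past 2-fold higher for the same 6 members, or 10.9% against 10.0% of all genes.

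Within the libraries numbered 2, which were closest in the number of symbols detected, 7 members were at least 2-fold higher with anti-PHGDH, or 12.7% against 12.5% of all genes, and 1 was lower, or 1.82% against 1.97%. The seventh of the higher ones was SLC25A15, the ornithine carrier of the urea cycle, at 17.5 and 23.0 against 0 and 8.86 CPM and a ratio of 2.60 (95% exact interval 1.32 to 5.34). The lower one was SLC25A46, an outer membrane protein of the carrier family linked to mitochondrial dynamics, at 11.6 and 5.75 against 1.03 and 16.5 CPM. Its ratio was 0.350 (95% exact interval 0.128 to 0.827) on 7 against 26 reads, and its values overlapped between the groups. A pair of libraries without replicates compares those libraries and not the antibodies.

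**Figure D3:**
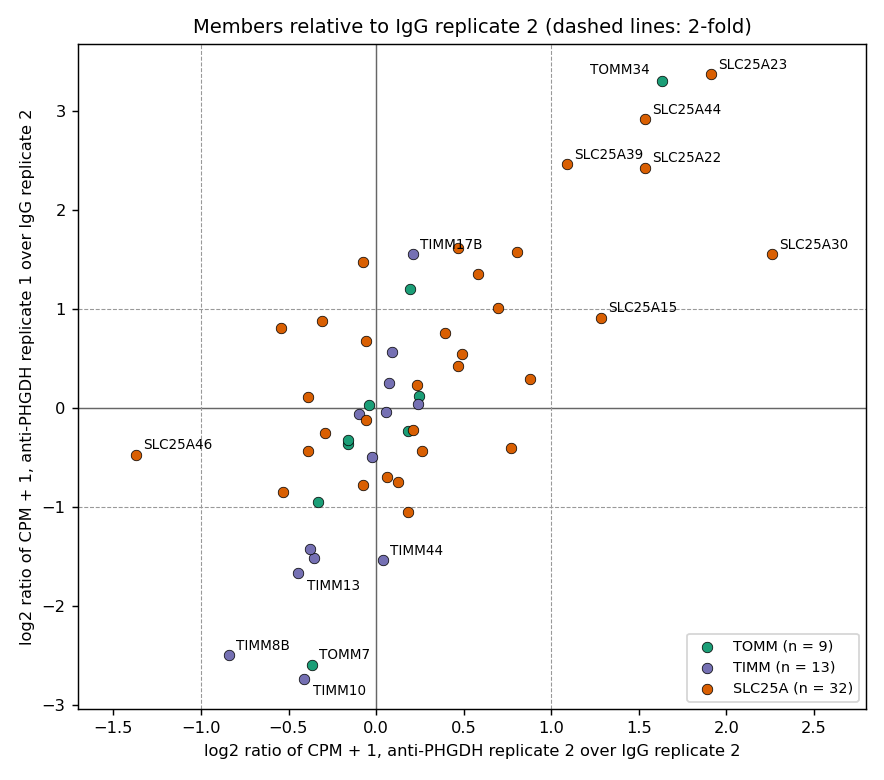
Each point is one of 54 members that passed the filter (1 is not drawn), placed by its log2 ratio of CPM + 1 to IgG replicate 2 in anti-PHGDH replicate 2 (horizontal) and anti-PHGDH replicate 1 (vertical); dashed lines mark 2-fold, and both axes share IgG replicate 2. The 6 members in the upper right corner are TOMM34, SLC25A39, SLC25A23, SLC25A44, SLC25A22 and SLC25A30, no member lies in the lower left corner, and TIMM8B, TIMM10, TIMM13 and TOMM7 lie low on the vertical axis.

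The carriers of adenine nucleotides, which exchange ADP for ATP, did not stand apart between the groups. SLC25A5 stood at 1223.5 and 1262.7 against 1301.4 and 914 CPM, with means of 1243 ± 27.7 and 1108 ± 274 CPM (SD, n = 2 each). SLC25A4 stood at 25.0 and 31.2 against 0.258 and 45.6 CPM. Both overlapped between the groups, with log2 differences of 0.19 (SE 1.17) and 1.92 (SE 2.64), and the first turned to −0.0767 with TMM scaling. SLC25A5 has several processed pseudogenes with which it may share reads, so its level is uncertain. SLC25A31 and SLC25A6 were listed at 0 in all 4 libraries. SLC25A6 lies at chrX:1386152-1392113 (GRCh38.p14), at the tip of the X chromosome that is shared with Y, where 27 of 28 genes up to CD99, and 14 of 15 protein-coding ones, were listed at 0 in all 4 libraries, so that its 0 cannot be read as absence of the mRNA.

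Several of the carriers with the most reads were level outside IgG replicate 1 or anti-PHGDH replicate 1. SLC25A3, the phosphate carrier, stood at 355 and 648 against 581.8 and 595 CPM. SLC25A1, the citrate carrier, stood at 303 and 182 against 162 and 189.9 CPM. SLC25A36, a carrier of pyrimidine nucleotides, stood at 60.6 and 82.2 against 0 and 70.9 CPM. All 3 overlapped between the groups, with anti-PHGDH replicate 1 lowest of the detecting libraries for SLC25A3 and SLC25A36 and highest for SLC25A1.

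SLC25A11, which exchanges oxoglutarate for malate, stood at 253 and 98.6 against 0 and 144 CPM. SLC25A17, a peroxisomal and not a mitochondrial carrier, stood at 50.2 and 48.5 against 228 and 34.2 CPM. Both depended on a single library: the log2 difference of SLC25A11 was 3.72 (SE 2.04) and 0.13 without IgG replicate 1, and that of SLC25A17 turned from −0.83 (SE 1.86) to 0.52 without it.

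**Figure D4:**
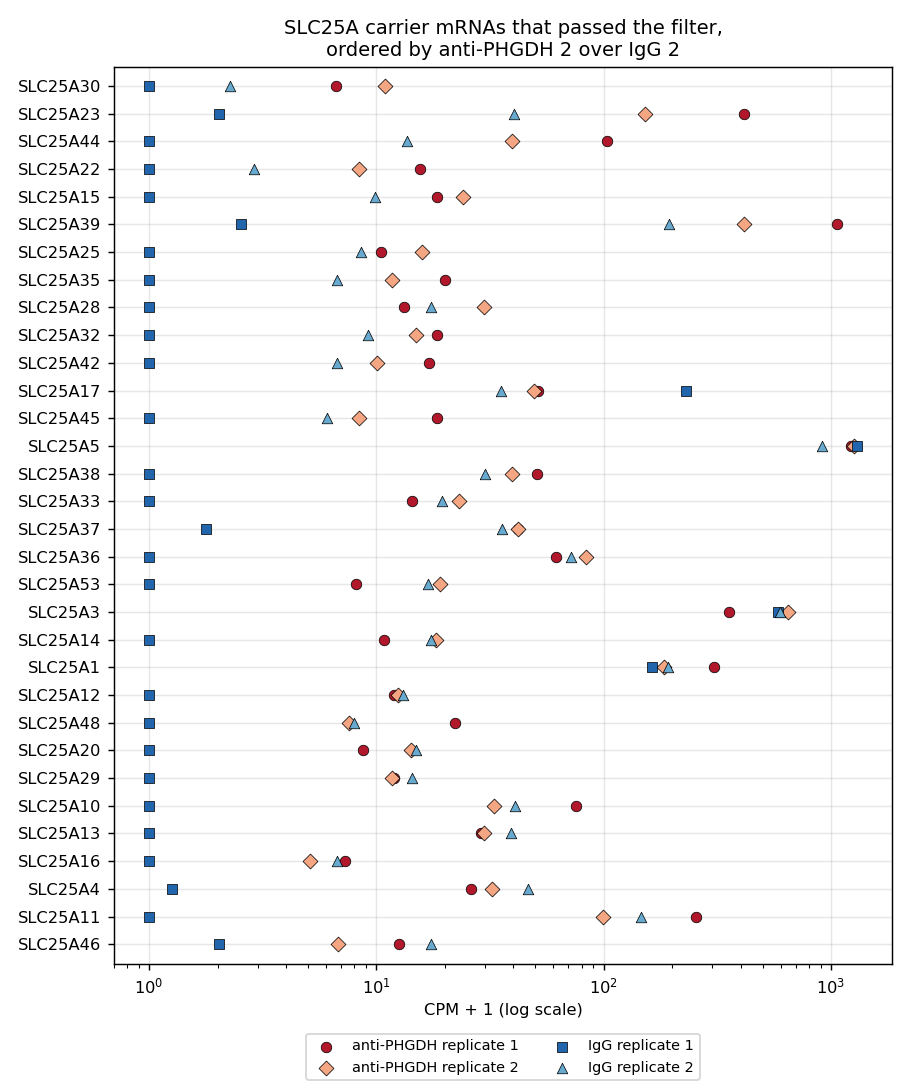
Each row is one of 32 carrier mRNAs that passed the filter (1 is not drawn), placed by CPM + 1 on a log axis in the 4 libraries and ordered from top to bottom by the ratio of anti-PHGDH replicate 2 to IgG replicate 2; a value of 1 on the axis is a CPM of 0. IgG replicate 1 is at 0 for 23 of them, and SLC25A30, SLC25A23, SLC25A44, SLC25A22 and SLC25A39 lie clear of both IgG libraries.

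The carriers whose values did not overlap between the groups included, besides SLC25A39, SLC25A23, SLC25A44, SLC25A22, SLC25A30 and SLC25A15, a further set read at moderate or low levels: SLC25A25, SLC25A32, SLC25A35, SLC25A37, SLC25A38, SLC25A42 and SLC25A45. SLC25A38, a glycine carrier needed for heme synthesis, stood at 49.9 and 38.6 against 0 and 29.1 CPM. SLC25A37, the iron carrier mitoferrin-1, stood at 41.0 and 41.1 against 0.774 and 34.8 CPM. SLC25A25, related to SLC25A23 in its calcium-regulated transport of ATP-magnesium and phosphate, stood at 9.51 and 14.8 against 0 and 7.60 CPM. In each of these the lower anti-PHGDH library was less than 2-fold above IgG replicate 2.

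Of the 19 members that did not pass the filter, 8 were listed at 0 in all libraries: TIMM22, SLC25A2, SLC25A6, SLC25A24, SLC25A31, SLC25A34, SLC25A41 and SLC25A52. Of the rest, SLC25A40, a paralog of SLC25A39, had 12 and 10 reads with anti-PHGDH and 1 and 4 with IgG, and its ratio within number 2 of 3.25 had a 95% exact interval of 0.936 to 14.2. SLC25A51, which imports NAD+, stood at 8.02 and 1.64 against 0 and 3.17 CPM. Neither could be resolved at this depth. Of the 74 members, 25 were above 0 in IgG replicate 1 and 61 in IgG replicate 2, against 66 and 62 with anti-PHGDH.

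The other genes of the import pathway were taken from a list of 63 that covers the TIM23 motor, the SAM and MICOS complexes, oxidative folding, membrane insertion, presequence processing, outer membrane channels, other inner membrane transporters and cytosolic delivery. Of the 57 that passed the filter, 0 were past the limma adjusted threshold in either direction, against 0.0105% of all genes as higher and 0.0% as lower. At an unadjusted p under 0.05 in limma, 2 were higher, or 3.51% against 2.74% of all genes, and 0 lower, against 0.0%. In edgeR 0 of the 57 genes were past the adjusted threshold, for which no share over all genes is given here. Their values did not overlap between the groups for 10 as higher (17.5%, against 38.3% of all genes) and 8 as lower (14.0%, against 6.16%). Their median log2 difference was 0.88, and −0.27 without IgG replicate 1. Both anti-PHGDH libraries lay below IgG replicate 2 for 27 of them (47.4%) and above it for 13 (22.8%), against the 25.1% and 43.9% of all genes given above.

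At least 2-fold higher in every pair were 3 of these genes (5.26%, against 9.3% of all genes), and 0 were lower, against 0.084%. UCP2, an uncoupling protein of the carrier family whose listed symbol lacks the SLC25A prefix, stood at 493 and 129 against 0 and 63.9 CPM. SFXN3, a sideroflexin of the inner membrane related to the serine carrier, stood at 41.3 and 32.1 against 0 and 6.96 CPM. MCU, the calcium uniporter, stood at 8.91 and 9.04 against 0 and 1.27 CPM, the last being 2 reads, and passed the filter only through the anti-PHGDH libraries. All 3 were highest in the anti-PHGDH libraries and without a read in IgG replicate 1.

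HSPA9, the chaperone that drives the import motor, stood at 90.0 and 213 against 1132 and 200.1 CPM. SAMM50, which inserts barrel proteins into the outer membrane, stood at 40.7 and 94.5 against 62.4 and 100.0 CPM. OXA1L, the insertase for proteins made inside mitochondria, stood at 369 and 178 against 105 and 98.1 CPM, higher in both anti-PHGDH libraries. CHCHD4, the oxidoreductase that folds the small TIM chaperones, stood at 57.6 and 69.9 against 29.2 and 57.6 CPM, with anti-PHGDH replicate 1 level with IgG replicate 2. Of these, OXA1L and, by a narrow margin, CHCHD4 were higher without overlap, as were 38.3% of all genes. For OXA1L the log2 difference was 1.33 (SE 1.57), with an adjusted p of 0.677 in limma. With library medians centred it was −1.17. HSPA9 peaked in IgG replicate 1, and SAMM50 overlapped.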

How the data were processed

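Per the submitters' processing notes, reads were handled with STAR 2.5.4b and featureCounts on hg38; the annotation, the use of strand, duplicate handling and filters are not given in the sources used here. The authors deposited 1 table of CPM per library, with 3 decimals. Within a library the deposited CPM values were whole multiples of 1 read for at least 99.98% of values above 0, which gave the read totals; 7 values were not whole, none of them a member's.

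Members and the other import genes were matched by symbol, 74 of 74 in the RefSeq table of GRCh38.p14, whose coordinates are used. Groups and replicate numbers came from the sample titles. The members, the lists, the tests and the alternatives were chosen with earlier results of these data known. All TOMM and TIMM members were named or counted. Of the carriers, the 8 with the highest mean CPM, the 5 highest and 5 lowest log2 differences, the ADP/ATP carriers and those 2-fold apart in every pair (at most 5) were named; SLC25A15, SLC25A25, SLC25A37, SLC25A38, SLC25A40 and SLC25A51 were chosen after their values were seen.

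The test was limma 3.58.1 (R 4.3.3; lmFit and eBayes with trend) on log2(CPM + 1), two-sided, for genes that reached 5 CPM or more in 2 libraries or more, with Benjamini-Hochberg adjustment and a threshold of 0.05. The prior degrees of freedom came out as infinite: each gene's spread was taken from the trend and not from its own libraries. Fold changes on this scale understate those of low genes. Alternatives on the recovered reads were DESeq2 1.42.0 and the quasi-likelihood test of edgeR 4.0.16; further ones were the pseudocount, filter, scaling, a replicate block and leaving out libraries. The procedure was tested on simulated counts whose gene means left out IgG replicate 1. That test does not cover a library with so many genes at 0. Ratios of reads have 95% exact (Clopper-Pearson) intervals, and shares Wilson intervals. The same-numbered samples did not deviate together (r = 0.00584 across 9524 genes, which are not independent replicates). A stated "level" means a ratio near 1, not a test of equality. Protein sequences were not used here. One carrier that the naming rule picked is counted but not reported here.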

Additional observations from a re-analysis of the deposited data

How the results depend on the processing

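IgG replicate 1 sets most of these results. No member was past the adjusted threshold under any alternative except without IgG replicate 2, where limma called 40 members higher and 4 lower, beside 74.9% and 10.8% of all genes; over the leave-one-out fits the counts ran from 0 to 40 and from 0 to 4. There IgG replicate 1 alone stands for the controls and is assumed to vary like the other libraries. IgG replicate 2 has 1 read worth 0.633 CPM and anti-PHGDH replicate 2 0.822 CPM, which limits the thinly read carriers. Of 677 values of 36 named members under the alternatives, 635 had the sign of the reported fit and 42, from 20 members, the opposite sign. The filters, the changes of limma's trend setting and the replicate block in limma leave a gene's log2 difference unchanged. Their values are among the 635 by construction. Except where a value in the report or the construction of the alternative shows it, the cause of the differences below was not tested.

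The labels do not say that a replicate number is a shared lysate or day, and same-numbered samples did not deviate together across genes. Since IgG replicate 1 listed far fewer symbols, that check cannot decide whether the samples were paired. With the replicate block in limma, 0 members were called as higher or lower, with adjusted p-values of 0.807 to 0.912. In edgeR with the replicate block the median difference of TOMM minus that of all genes was −2.96 and the log2 difference of SLC25A5 −0.0768, and no other direction turned.

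Members without overlap, 19 higher and 4 lower as reported, numbered 4 and 23 with library medians centred, and 10 and 10 after quantile normalization. The lower ones were 7 with TMM factors and 2 without the mitochondrially encoded genes, and the higher ones were 8 with a filter of 20 CPM, which tests fewer genes. Leaving out 1 library gave 23 to 43 higher and 4 to 17 lower. Shares over all genes are given above for centred medians, quantiles and leaving out IgG replicate 1. They are also given, for the lower ones, without the mitochondrially encoded genes. At the other settings no share is given here, and the counts without overlap are not read as a result about the members. Within number 2, the members apart were 7 higher and 1 lower as reported, 11 and 2 at a fold of 1.5, 1 and 0 at a fold of 4, and 4 and 0 with the filter of 20 CPM. The lower ones were 3 with a filter of 1 CPM and with no filter, 2 each with TMM factors, centred medians and quantiles, and 0 with a pseudocount of 5. Shares over all genes within number 2 are not given here for settings other than the reported one. The counts at those settings are therefore not read as a result about the members.

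The median log2 difference of TOMM minus that of all genes, −1.54 as reported, was −2.997 with a pseudocount of 0.1, −0.65 with one of 5, −1.23 with a filter of 1 CPM and −0.52 with no filter. It was −0.81 in edgeR, −0.84 in DESeq2 and 0.59 after quantile normalization, and −2.68 to −0.16 leaving out 1 library. That of TIMM, −0.77 as reported, was −2.48 with a filter of 20 CPM and 0.0414 after quantile normalization. The difference in the summed TOMM share, −0.1787 percentage points as reported, was −0.0199 without its pair of highest members (TOMM5 and TOMM20) and 0.0151 without TOMM20 and TOMM70, with −0.2879 as the lowest value leaving out 1 library. That of TIMM, −0.1243 as reported, was −0.0364 without TIMM8A and TIMM17A, with −0.1872 as the lowest leaving out 1 library. That of SLC25A, 0.144 as reported, was 0.2395 without the mitochondrially encoded reads and 0.0536 without SLC25A39 and SLC25A23.

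Among named members, centring on library medians, which moves the median of all genes by −2.50, turned the log2 difference to −2.07 for SLC25A1, −0.0004 for SLC25A30, −0.58 for SLC25A4, −1.87 for SLC25A46 and −2.31 for SLC25A5. It also turned it to −0.79 for TIMM13, −0.0563 for TIMM21, −1.34 for TIMM29, −0.0049 for TIMM9, −2.12 for TOMM22, −2.16 for TOMM6 and −1.86 for TOMM7. Quantile normalization turned it to 0.42 for SLC25A3, −0.96 for SLC25A4, −1.44 for SLC25A46, −0.69 for TIMM29 and 0.51 for TOMM5. TMM factors turned that of SLC25A5 to −0.0767. In edgeR it was −0.17 for SLC25A46, −0.12 for SLC25A5, −0.13 for TIMM13, −0.051 for TIMM29, −0.0035 for TOMM6 and −0.34 for TOMM7, and in DESeq2 it was −0.18 for TOMM7.

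Leaving out 1 library, the log2 difference ran from −2.19 to 0.52 for SLC25A17, from −0.73 to 0.14 for SLC25A3, from −0.0063 to 6.16 for SLC25A36, from −0.69 to 4.52 for SLC25A4, from −0.92 to 2.18 for SLC25A46 and from −0.0663 to 0.44 for SLC25A5. It ran from −1.002 to 0.16 for TIMM10B, from −1.06 to 4.47 for TIMM13, from −0.84 to 0.14 for TIMM23, from −0.93 to 3.24 for TIMM29, from −0.75 to 6.25 for TIMM44 and from −0.26 to 5.24 for TIMM9. For TOMM40 it ran from −0.0067 to 5.87, for TOMM6 from −0.24 to 0.92 and for TOMM7 from −1.48 to 2.75.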
